A study of Mus musculus with 6 samples.

Results

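The endothelial and mural cells of brain vessels were followed through 34 genes that mark them or carry out their work: 7 barrier transporters (with basigin, a partner of carriers), 6 junction genes, 7 endothelial receptors and regulators of them, 7 mural cell genes and 7 other endothelial genes. Every probe set that the array annotation pairs with exactly 1 of these symbols was taken. This gave 58 probe sets for 33 genes, out of 45037 probe sets and 18193 genes in all. The remaining gene, Ly6c1, shares its probe set with another gene and was not read. RNA came from the brain without its cerebellum, from 3 Gb5-deficient samples (Gb5ko, replicates 1 to 3) and 3 wild-type samples (Gb5wt, replicates 4 to 6), with 1 Affymetrix array per sample. Gb5 is the G protein beta subunit encoded by Gnb5, which pairs with R7 RGS proteins. The labels name no cell-specific deletion, other allele or treatment, and cohorts were littermates matched by age and by sex, kept free of pathogens. The labels give neither the age nor the strain nor each animal's sex. The design speaks of biological replicates, no label ties an array to a numbered animal, and p-values measure only the spread between these arrays.

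Brain capillaries are built of endothelial cells sealed by tight junctions and wrapped by pericytes, and arterioles carry contractile smooth muscle in place of pericytes. Because the junctions close the space between cells, nutrients and drugs pass the endothelium mainly through transporters, which take up glucose and hormones and pump foreign compounds back into the blood. VEGF, angiopoietin and TGF-beta family receptors keep the vessels in shape, and PDGF receptor beta holds pericytes on them. In whole brain RNA these transcripts come from a small share of the cells, and fewer vessel cells cannot be told apart from less RNA per cell.

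None of the 58 probe sets passed the limma adjusted threshold of 0.05, against 0.0266% of all probe sets. The smallest adjusted p was 0.0694, for Acvrl1, a TGF-beta family receptor of endothelium that was higher in all 3 knockouts. The next was 0.216, for the membrane protein gene Itm2a, which was lower in all 3 knockouts. At an unadjusted limma p under 0.05, 12 of 58 probe sets differed (20.7%), against 14.4% of all. Of these 5 were higher in knockouts (8.62%, against 8.09% of all) and 7 lower (12.1%, against 6.33%). The groups did not overlap at 6 probe sets that were higher (10.3%, against 12.5% of all) and 8 that were lower (13.8%, against 8.95%). A positive difference was found at 27 of 58 probe sets (46.6%), and at 55.5% of all probe sets.

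**Figure D1:**
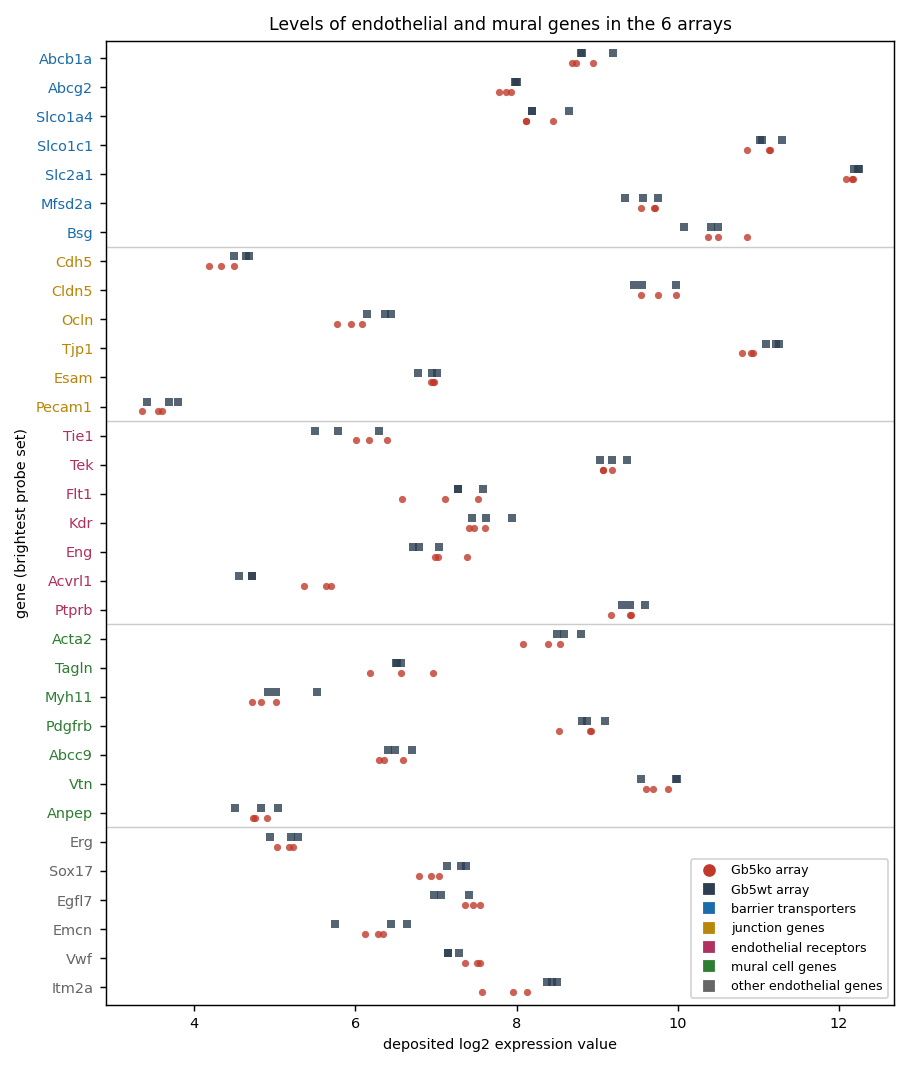
Deposited log2 expression values of the 33 genes, each read by its probe set of highest mean, in the 3 Gb5ko arrays (circles) and the 3 Gb5wt arrays (squares), with genes grouped and coloured by role. The groups overlap for most genes, and Acvrl1 and Itm2a have the largest differences between group means; levels of different genes are not comparable on arrays.

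With each gene read by its probe set of highest mean, 11 of the 33 genes had a positive and 22 a negative difference (Gb5ko minus Gb5wt), with a median of -0.10 on the log2 scale. Over all genes 59.9% were positive, with a median of 0.05. At this reading an unadjusted p under 0.05 was found for 3 genes with a positive and 5 with a negative difference (9.89% and 5.68% of all genes), and the groups did not overlap for 2 that were higher and 7 that were lower (16.1% and 9.01% of all genes). Medians by role were -0.08 for the barrier transporters, -0.20 for the junction genes, -0.09 for the endothelial receptors, -0.12 for the mural genes and -0.014 for the other endothelial genes. The spread of role means between arrays of a group, as a pooled SD, ran from 0.0882 for junction genes to 0.135 for receptors. The transporter and receptor medians were no larger than that spread, that of mural genes about as large and that of junction genes larger. A spread of means is only a rough scale for medians, and no test was made over a role. With a gene's value taken as the mean over its probe sets, the mural median was 0.0093, the junction median -0.062 and the receptor median -0.0011. The receptor median was 0.011 with the probe set of largest SD and 0.03 over all 14 receptor probe sets, so its sign rests on the choice of probe set. Receptor means at the brightest probe sets read 7.39, 7.39 and 7.46 in Gb5ko arrays and 7.15, 7.51 and 7.22 in Gb5wt arrays. The sign thus also depends on taking a median or a mean. The mean leans on Acvrl1, at 0.90, while the other receptors differed by -0.30 (Flt1) to 0.33 (Tie1). The median of the other endothelial genes turned positive without wild-type replicate 5 (0.11) and without knockout replicate 1 (0.046). For 22 of the 33 genes the 95% interval of the difference lay within a 1.5-fold change in either direction. These include Cdh5, Pecam1 and Anpep, with means under 5, where folds can be compressed. For these 3 a narrow interval does not bound the change in the transcript. The interval reached past 1.5-fold for Bsg, Ocln, Tie1, Flt1, Eng, Acvrl1, Acta2, Myh11, Sox17, Egfl7 and Itm2a, so for these a larger difference was not bounded at this number of arrays.

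None of the 7 barrier transporters had an unadjusted p under 0.05 at its brightest probe set. Of all genes 9.89% were higher and 5.68% lower at that level, so 0 of 7 is near the share of all. Slc2a1 encodes GLUT1, the glucose carrier of the barrier. Its brightest probe set read 12.09, 12.16 and 12.17 in Gb5ko arrays and 12.24, 12.24 and 12.18 in Gb5wt arrays. The difference was -0.08 ± 0.0939 (SE), with a 95% interval from -0.29 to 0.13, and its other probe sets differed by -0.02 and -0.08. Slco1c1, the thyroxine carrier, differed by -0.07 (-0.35 to 0.21), Slco1a4, an organic anion carrier, by -0.12 (-0.47 to 0.23), and Mfsd2a, the carrier of lysophospholipids with docosahexaenoic acid, by 0.10 (-0.19 to 0.39). None of these intervals reached a 1.5-fold change. GLUT1 and the thyroxine carrier are also made in choroid plexus and other brain cells, so their bulk level is not that of endothelium alone.

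The drug efflux pumps had negative differences. Abcg2, the breast cancer resistance protein, read 7.87, 7.93 and 7.78 in Gb5ko arrays and 7.99, 8.01 and 7.98 in Gb5wt arrays. The groups did not overlap, yet the difference was only -0.13 ± 0.096 (limma adjusted p = 0.552). Abcb1a, for P-glycoprotein, read 8.74, 8.69 and 8.95 in Gb5ko arrays and 8.80, 9.20 and 8.81 in Gb5wt arrays, a difference of -0.14 ± 0.137 (limma adjusted p = 0.652) in overlapping groups. A dimmer Abcb1a probe set read 5.83, 6.29 and 6.51 in Gb5ko arrays and 6.63, 6.86 and 6.50 in Gb5wt arrays. It differed by -0.45 ± 0.177 (limma adjusted p = 0.301), so that the size of the Abcb1a difference depended on the probe set while its sign did not. Bsg encodes basigin, a surface partner of monocarboxylate carriers found on many cell types. It read 10.86, 10.50 and 10.38 in Gb5ko arrays and 10.08, 10.41 and 10.50 in Gb5wt arrays, with a difference of 0.25 ± 0.158 (limma adjusted p = 0.488). Its groups overlapped, with the highest value in knockout replicate 1 and the lowest in wild-type replicate 4.

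Among junction genes read by their brightest probe sets, 3 of 6 were lower at an unadjusted p under 0.05 and 0 higher, against 5.68% and 9.89% of all genes. The 3 were Tjp1, Ocln and the dim Cdh5. Over all 8 junction probe sets 3 were lower and 1, a second one of Cdh5, was higher, against 6.33% and 8.09% of all probe sets. Tjp1, for the scaffold ZO-1, read 10.79, 10.90 and 10.93 in Gb5ko arrays and 11.22, 11.25 and 11.09 in Gb5wt arrays. Its difference was -0.31 ± 0.101 (limma adjusted p = 0.258), and every knockout array lay below every wild-type array. Ocln, for the tight-junction protein occludin, read 5.78, 6.09 and 5.95 in Gb5ko arrays and 6.36, 6.44 and 6.14 in Gb5wt arrays. It differed by -0.38 ± 0.125 (limma adjusted p = 0.262), again without overlap, and its dim second probe set by -0.11 (-0.38 to 0.17). ZO-1 and occludin are also made by epithelial cells of the choroid plexus, and ZO-1 by astrocytes.

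Claudin-5, the main sealing protein of the barrier, did not share this direction. Cldn5 read 9.98, 9.55 and 9.75 in Gb5ko arrays and 9.46, 9.98 and 9.56 in Gb5wt arrays, a difference of 0.09 ± 0.162 with a 95% interval from -0.27 to 0.46. The groups overlapped, with knockout replicate 1 and wild-type replicate 5 both at the top. Esam, an adhesion molecule of endothelial junctions, differed by 0.05 (-0.18 to 0.28).

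The classical pan-endothelial markers were dim on these arrays. Cdh5, for VE-cadherin, had a brighter probe set at 4.50, 4.33 and 4.18 in Gb5ko arrays and 4.68, 4.65 and 4.50 in Gb5wt arrays, a difference of -0.27 ± 0.115 (limma adjusted p = 0.332). Its second probe set read 3.20, 3.10 and 3.04 in Gb5ko arrays and 2.69, 2.81 and 2.97 in Gb5wt arrays, a difference of 0.28 ± 0.11 (limma adjusted p = 0.298). Both separated the groups, the brighter one by less than the rounding shown, in opposite directions, so no direction can be given for Cdh5. Pecam1, for the adhesion molecule CD31, read between 3.35 and 3.61 in Gb5ko arrays and between 3.41 and 3.80 in Gb5wt arrays. No detection calls were used here, and neither gene was shown to lie above background.

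Endothelial receptors differed from one another in direction. Acvrl1 encodes ALK1, the receptor on endothelium for the circulating ligands BMP9 and BMP10. Its brighter probe set read 5.64, 5.70 and 5.36 in Gb5ko arrays and 4.56, 4.72 and 4.72 in Gb5wt arrays. The knockout mean was 0.90 ± 0.12 (SE) above the wild-type mean, 1.87-fold, with a limma adjusted p of 0.0694. The second probe set read 5.04, 5.03 and 5.52 in Gb5ko arrays and 4.60, 4.91 and 4.88 in Gb5wt arrays, 0.40 ± 0.156 higher with a limma adjusted p of 0.3. Both probe sets separated the groups in the same direction, and both lay near a level of 5, where the deposited values can compress a fold change. With probe sets of a mean under 5 left out, its limma adjusted p was 0.0492, but it cleared that filter only through its knockout values (means of 5.57 and 4.67), so this lends the difference no support. Without 1 array its difference stayed between 0.84 and 1.00, with adjusted p values from 0.0664 to 0.336. Acvrl1 is a member known from an earlier look at these data to differ, so its place at the top of the list is no independent result.

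Eng encodes endoglin, the co-receptor of ALK1. Its brighter probe set read 7.38, 7.03 and 6.99 in Gb5ko arrays and 6.79, 7.04 and 6.72 in Gb5wt arrays, a difference of 0.28 ± 0.14 (limma adjusted p = 0.389). Its second probe set differed by 0.22 ± 0.132 (limma adjusted p = 0.462). Groups overlapped at both, through the high value of wild-type replicate 5. Tie1, an orphan receptor that modulates the angiopoietin receptor, read 6.39, 6.01 and 6.17 in Gb5ko arrays and 5.50, 6.29 and 5.79 in Gb5wt arrays. The difference was 0.33 ± 0.194 (limma adjusted p = 0.457), and wild-type replicate 5 again lay within the range of the knockouts.

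The VEGF and angiopoietin receptors among the members, and the phosphatase that acts on one of them, had negative differences at their brightest probe sets. Flt4, for VEGF receptor 3, which was no member, differed by 0.12. Kdr, for VEGF receptor 2, differed by -0.17 (-0.49 to 0.14), Tek, for the angiopoietin receptor TIE2, by -0.09 (-0.35 to 0.17), and Ptprb, for the phosphatase VE-PTP that acts on TIE2, by -0.10 (-0.36 to 0.17). Other Ptprb probe sets differed by 0.08 and 0.01, so Ptprb had no settled sign. Much of these differences rested on wild-type replicate 5. Without it the brightest probe sets differed by -0.20 for Flt1, -0.04 for Kdr, -0.0021 for Tek and -0.02 for Ptprb. Flt1, for VEGF receptor 1, had 4 probe sets, 3 with a negative difference from -0.36 to -0.21 and 1 at 0.05. One of them separated the groups, at 6.68, 6.46 and 6.84 in Gb5ko arrays and 7.09, 6.96 and 6.99 in Gb5wt arrays (-0.36 ± 0.12, limma adjusted p = 0.267). Probe sets of Flt1 can read different transcripts, because the gene makes a membrane receptor and a shorter soluble form, and the annotation does not say which form each one reads.

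**Figure D2:**
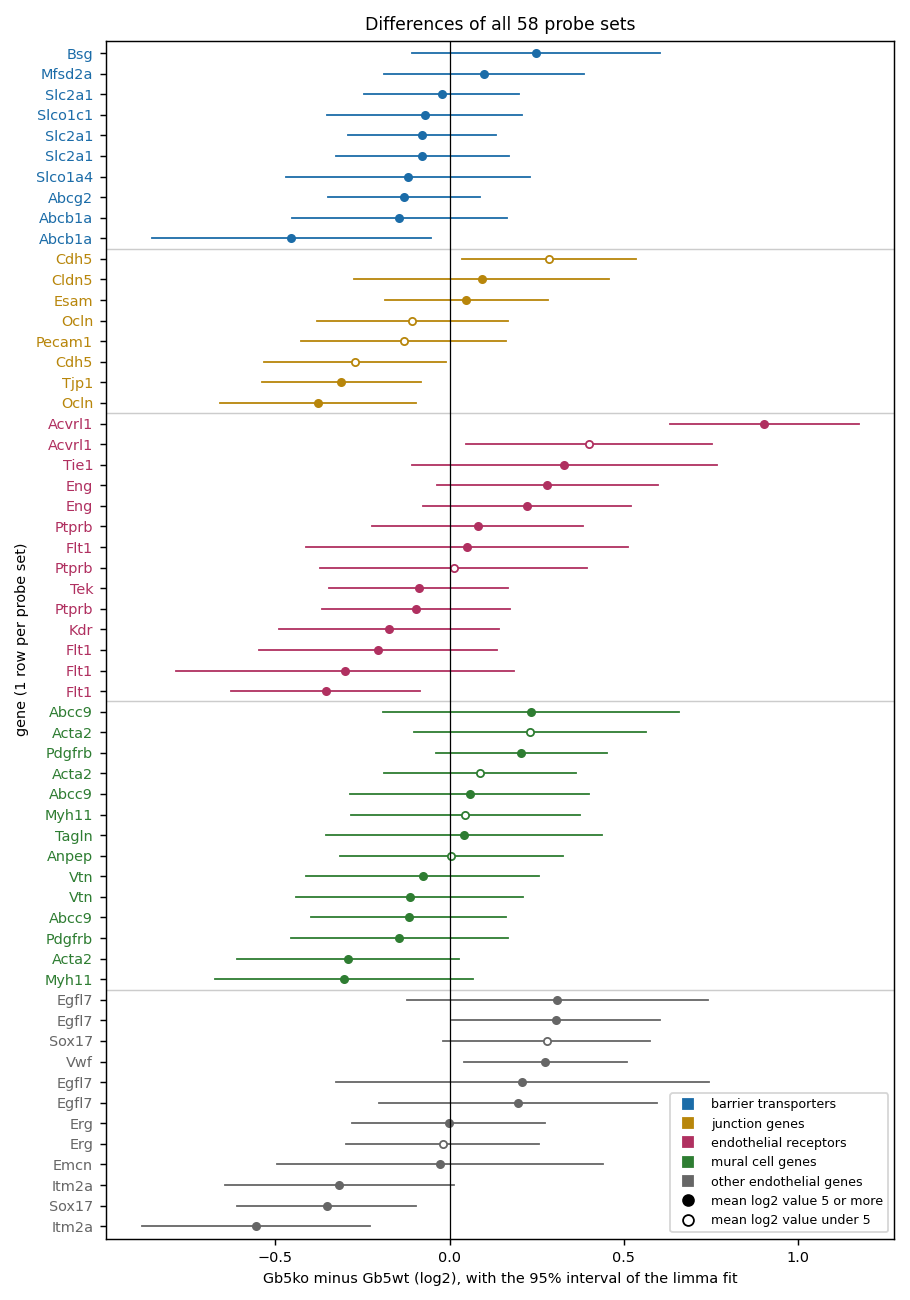
Difference between the group means, Gb5ko minus Gb5wt on the log2 scale, with the 95% interval of the limma fit, for all 58 probe sets grouped by role; open circles have a mean log2 value under 5. Acvrl1 stands highest at 0.90, Itm2a lowest at -0.56, and most intervals hold 0.

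Mural genes gave 0 of 14 probe sets at an unadjusted p under 0.05, where 14.4% of all probe sets had one. Acta2 encodes the smooth muscle actin of arterioles. Its bright probe set read 8.54, 8.39 and 8.08 in Gb5ko arrays and 8.59, 8.80 and 8.50 in Gb5wt arrays, a difference of -0.29 ± 0.141 (limma adjusted p = 0.378), with overlap. It is of a kind that can also detect other transcripts of similar sequence. Dim Acta2 probe sets differed by 0.09 and 0.23. Myh11, the smooth muscle myosin heavy chain, read 5.01, 4.72 and 4.83 in Gb5ko arrays and 4.92, 5.52 and 5.02 in Gb5wt arrays, a difference of -0.30 ± 0.164 (limma adjusted p = 0.423) that widened through wild-type replicate 5. Tagln, for the contractile-cell protein transgelin, differed by 0.04 (-0.35 to 0.44), its knockout values running from 6.19 to 6.96 and its wild-type values from 6.51 to 6.57. A dim probe set of Myh11 differed by 0.05, and the contractile genes had no shared sign.

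Pericyte genes had small differences of either sign. Pdgfrb, for PDGF receptor beta, read 8.53, 8.91 and 8.92 in Gb5ko arrays and 8.87, 9.10 and 8.82 in Gb5wt arrays at its brighter probe set, a difference of -0.14 ± 0.138 (limma adjusted p = 0.653). Its other probe set read 8.24, 8.01 and 8.06 in Gb5ko arrays and 7.82, 8.0 and 7.88 in Gb5wt arrays, 0.21 ± 0.108 higher (limma adjusted p = 0.409). The sign of Pdgfrb thus depended on the probe set. Vtn, for vitronectin, which brain pericytes secrete, differed by -0.11 and -0.08 at its probe sets, and Abcc9, a subunit of potassium channels in pericytes and muscle, by -0.12, 0.23 and 0.06. Anpep, for aminopeptidase N, was dim at 4.80 in both groups and differed by 0.01 (-0.31 to 0.33).

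Among the other endothelial genes, Itm2a had the largest negative difference of all members. It encodes a membrane protein that is abundant in brain endothelium and is also made by other cells. Its bright probe set read 7.57, 8.13 and 7.96 in Gb5ko arrays and 8.38, 8.51 and 8.44 in Gb5wt arrays, a difference of -0.56 ± 0.145, 1.47-fold, at an adjusted p of 0.216 by limma. The second probe set read 5.68, 5.97 and 5.64 in Gb5ko arrays and 5.81, 6.22 and 6.21 in Gb5wt arrays, a difference of -0.32 ± 0.145 (limma adjusted p = 0.358). The brighter one separated the groups and the other did not, and both had the same sign.

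Sox17, a transcription factor of arterial endothelium, read 6.79, 6.94 and 7.04 in Gb5ko arrays and 7.32, 7.37 and 7.14 in Gb5wt arrays at its brighter probe set (-0.35 ± 0.114, limma adjusted p = 0.258). This probe set is of a kind that can cross-hybridize. A dim Sox17 probe set differed by 0.28 ± 0.131 in the opposite direction, so Sox17 too has no settled sign. Vwf, for von Willebrand factor, read 7.55, 7.50 and 7.36 in Gb5ko arrays and 7.15, 7.29 and 7.15 in Gb5wt arrays. Its difference was 0.28 ± 0.104 (limma adjusted p = 0.291), without overlap.

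Egfl7, a secreted endothelial protein, had a positive difference at 4 of 4 probe sets, from 0.20 to 0.31, with limma adjusted p values from 0.335 to 0.715 and overlapping groups. The brightest of them and another are, like that of Sox17, of a kind that can cross-hybridize. Emcn, for the sialoglycoprotein endomucin, differed by -0.03 (-0.49 to 0.44), and both probe sets of Erg, the ETS transcription factor that keeps endothelial identity, by -0.0023 and -0.02. Emcn values ran from 5.74 to 6.64 in Gb5wt arrays alone, wider than the 6.13 to 6.34 of the knockouts.

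**Figure D3:**
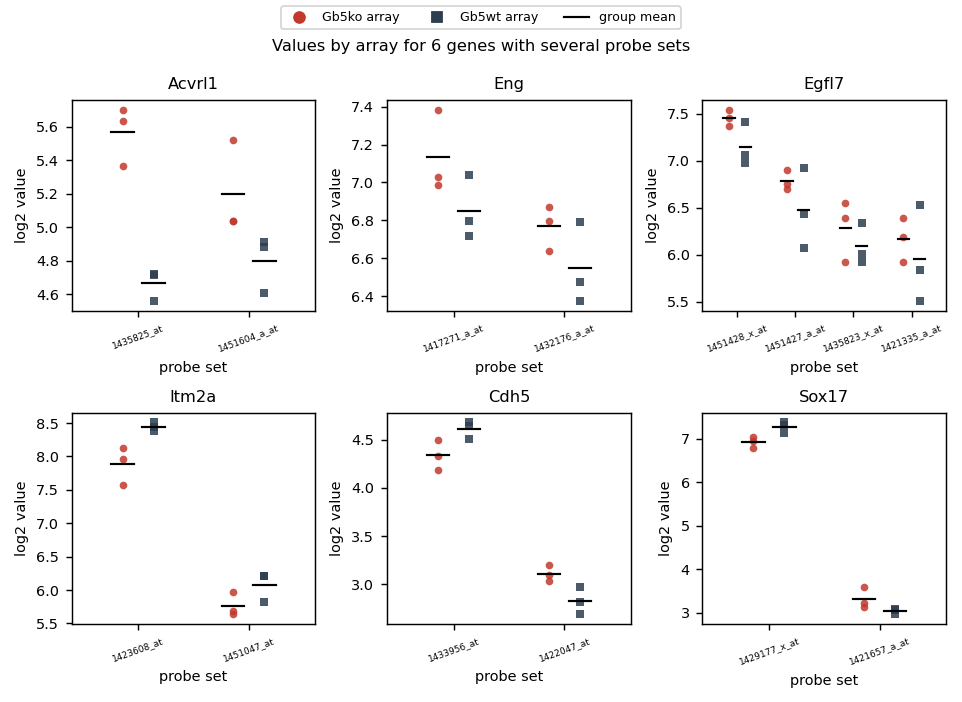
Log2 values by array for 6 genes with several probe sets, with Gb5ko arrays as circles, Gb5wt arrays as squares and group means as bars; each panel has its own axis. Probe sets of Acvrl1, Eng, Egfl7 and Itm2a share a direction, and those of Cdh5 and Sox17 oppose one another.

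Of the 17 genes with several probe sets, 3 had positive differences throughout, 6 negative ones throughout and 8 mixed signs. Mixed signs were found for 47.1% of these genes and for 55.5% of the 9010 genes on the array with several probe sets. Acvrl1, Eng and Egfl7 were the 3 with positive differences, and Abcb1a, Slc2a1, Ocln, Vtn, Erg and Itm2a the 6 with negative ones. Signs were also counted by level, with no test. Of 12 member probe sets with a mean under 5, 8 had a positive difference, and of 46 at 5 or more, 19 did, while the share over all probe sets was 55.7% under 5 and 55.4% at 5 or more.

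The clearest shared pattern of these genes was not between genotypes but in 1 array. Wild-type replicate 5 read above the mean of the other wild types for 32 of 33 genes, by a median of 0.25, whereas 52.7% of all genes did so, by a median of 0.011. It held the highest of the 6 values for 21 of the 33 genes (63.6%, against 12.2% of all genes) and the lowest for 0. The largest excess was that of Tie1 at 0.65, followed by Myh11 at 0.55, Emcn at 0.55, Cldn5 at 0.47, Slco1a4 at 0.45 and Kdr at 0.41. Every role took part, with 7 of 7 transporters, 6 of 6 junction genes, 7 of 7 receptors, 6 of 7 mural genes and 6 of 6 other endothelial genes above the other wild types, Abcc9 being the exception at -0.07. Summed on the linear scale, the 33 genes reached 1.14 times the mean of the other 5 arrays in this one and 0.949 to 0.994 times in each of the others. The array was chosen for this description after its values were seen, and no test was made.

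Other lists of vessel genes varied in this respect, as did those of other cells. Above the other wild types in replicate 5 were 9 of 12 further mural markers, 9 of 12 further barrier transporters, 9 of 12 further junction genes, 8 of 10 Notch genes, 12 of 16 BMP and TGF-beta genes, 5 of 7 VEGF genes and 3 of 4 angiopoietin genes, but 9 of 17 Wnt genes and 1 of 4 PDGF genes, against 52.7% of all genes. The same held for 8 of 10 choroid plexus, 7 of 10 neuron, 5 of 11 astrocyte, 4 of 10 microglia, 4 of 12 meningeal fibroblast, 3 of 9 blood, 3 of 7 pituitary and 0 of 9 oligodendrocyte markers. Median excess was 0.05 for choroid plexus, 0.07 for neuron and -0.28 for oligodendrocyte markers.

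**Figure D4:**
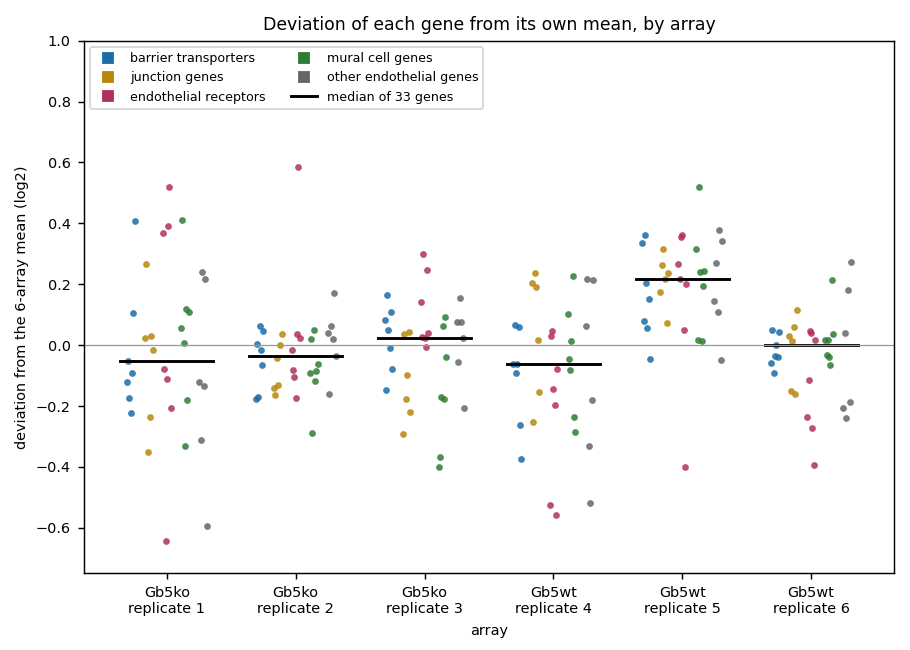
Deviation of each of the 33 genes from its own mean over the 6 arrays, on the log2 scale, by array and coloured by role, with the median as a bar. In Gb5wt replicate 5 the median is 0.22, and in the other arrays it lies between -0.06 and 0.02.

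The promoters of 4 of these endothelial genes are shown: Tie1 and Emcn for the excess in wild-type replicate 5, Eng as the co-receptor of ALK1, and Itm2a for the largest negative difference. Each is the 250 bases before the annotated start, from RefSeq on GRCm38.p6, written 5′ to 3′ on the strand of the gene. Capitals mark AGGAAG on either strand (CTTCCT where it is on the other one), a form of the core that ETS factors such as Erg bind. The Tie1 window is chr4:118489850-118490099 on the minus strand, that of Eng chr2:32646345-32646594 on the plus strand, that of Emcn chr3:137340828-137341077 on the plus strand and that of Itm2a chrX:107403361-107403610 on the minus strand.
Tie1: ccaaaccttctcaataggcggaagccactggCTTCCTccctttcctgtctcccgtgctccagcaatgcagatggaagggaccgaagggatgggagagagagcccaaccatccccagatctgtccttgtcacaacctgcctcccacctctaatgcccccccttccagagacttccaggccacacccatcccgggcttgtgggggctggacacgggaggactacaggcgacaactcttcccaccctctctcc
Eng: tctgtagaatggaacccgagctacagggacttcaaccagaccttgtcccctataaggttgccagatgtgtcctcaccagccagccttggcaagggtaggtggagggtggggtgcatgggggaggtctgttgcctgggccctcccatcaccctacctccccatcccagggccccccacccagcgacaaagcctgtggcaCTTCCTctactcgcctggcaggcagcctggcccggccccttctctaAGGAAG
Emcn: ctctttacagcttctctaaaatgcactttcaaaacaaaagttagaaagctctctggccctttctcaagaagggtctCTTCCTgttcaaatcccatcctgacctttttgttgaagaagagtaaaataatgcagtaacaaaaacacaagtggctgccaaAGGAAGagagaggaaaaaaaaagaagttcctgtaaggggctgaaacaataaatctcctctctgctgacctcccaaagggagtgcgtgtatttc
Itm2a: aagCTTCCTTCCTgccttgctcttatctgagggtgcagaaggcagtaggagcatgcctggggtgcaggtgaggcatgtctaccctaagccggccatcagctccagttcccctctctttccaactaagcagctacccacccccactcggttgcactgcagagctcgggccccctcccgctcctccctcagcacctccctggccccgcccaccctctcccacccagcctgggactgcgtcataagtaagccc
Tie1 held 1 match, 219 bases before the start, counted from the first base of the match. Eng held 2, at 52 and 6 bases, Emcn 2, at 174 and 93 bases, and Itm2a 2 that overlap each other, at 247 and 243 bases. Of the measured members, 22 had a promoter in the table, 29 windows in all, and 14 of those windows (48.3%) held the motif, against 29.5% of the 32851 windows of all genes. By gene 11 of the 22 held it, so the 4 shown, which all hold it, do not stand for the rest. Acvrl1 was not among the 22. A match describes letters and is not a shown binding site.

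Values without wild-type replicate 5 follow; since this array was picked for its high member values, leaving it out raises the differences by construction, and the counts restate that pattern. At an unadjusted limma p under 0.05, 9 of 58 probe sets were then higher in knockouts (15.5%, against 6.49% of all) and 3 lower (5.17%, against 5.45%), where all arrays had given 5 and 7. None passed the adjusted threshold, the smallest adjusted p being 0.278 for Acvrl1. The 9 were those of Acvrl1 and Eng, 2 each, 3 of Egfl7, and Tie1 and Vwf, and the 3 were those of Tjp1, Flt1 and Itm2a. Tie1 then differed by 0.55 ± 0.157 (limma adjusted p = 0.35) and the brightest Egfl7 probe set by 0.44 ± 0.121 (0.349). The signed difference was higher without it at 50 of the 58 probe sets, with a median change of 0.07, so that negative ones such as that of Kdr (-0.17 to -0.04) came nearer to 0, and 34 of 58 were positive. Acvrl1 at 0.93 and Itm2a at -0.52 hardly moved, so their direction did not rest on this array, while the count of lower probe sets and that of higher ones did.

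**Figure D5:**
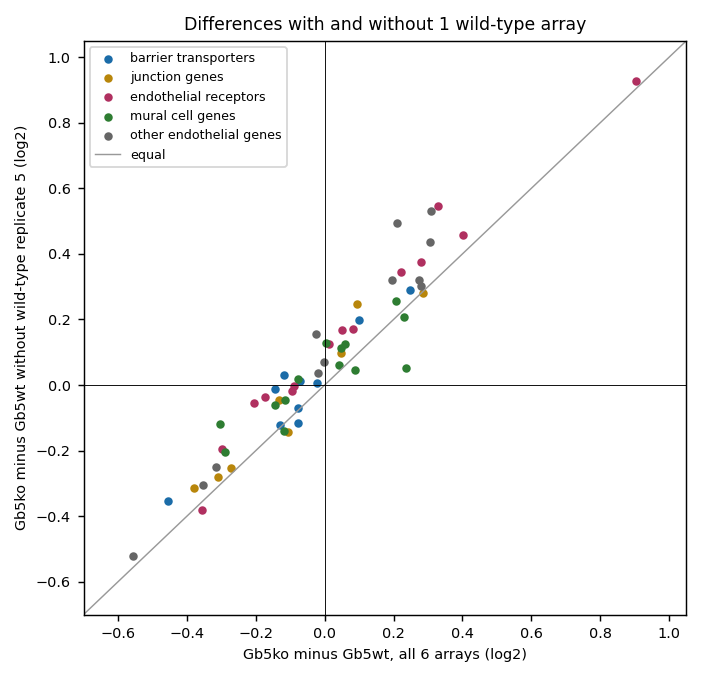
Gb5ko minus Gb5wt on the log2 scale for the 58 probe sets, with all 6 arrays on the horizontal axis and without Gb5wt replicate 5 on the vertical axis, coloured by role; the grey line marks equal values. Of the 58 points 50 lie above the line, and Acvrl1 at the upper right and Itm2a at the lower left lie close to it.

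Genes of the pathways around these members were read from 9 lists, each gene by its brightest probe set. Of 93 measured genes 0 passed the limma adjusted threshold (0.022% of all genes did). At an unadjusted p under 0.05, 1 was higher, against 9.89% of all genes, and 11 lower, against 5.68%. Over all 194 probe sets of these genes 5 were higher and 15 lower, against 8.09% and 6.33% of all probe sets. The size of the lower share thus depended on reading 1 probe set per gene. Higher ones fell short of the share of all in both readings. The 5 higher probe sets lay in the Wnt list (2) and in the BMP, PDGF and further mural lists (1 each). The smallest p in the list of VEGF ligands and co-receptors were those of Vegfa, the main growth factor of vessels, at -0.60 ± 0.165 (limma adjusted p = 0.222), and Vegfc at -0.30 ± 0.118 (0.301). Vegfa read 6.74, 7.25 and 7.34 in Gb5ko arrays and 7.80, 7.80 and 7.54 in Gb5wt arrays, without overlap. Angpt2, a context-dependent ligand of TIE2, differed by -0.40 ± 0.142 (limma adjusted p = 0.276), and the other 3 of the 4 genes on its list had an unadjusted p above 0.05.

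Of 16 genes of BMP and TGF-beta signalling, a list that holds ligands, receptors and targets, 2 were lower at an unadjusted p under 0.05 and 0 higher, against 5.68% and 9.89% of all genes. Id2, a target of BMP signalling that many brain cells also make, differed by -0.38 ± 0.0961 (limma adjusted p = 0.209), and the ligand gene Bmp4 by -0.41 ± 0.141 (0.269). Id1 and Id3 on the same list differed by 0.20 ± 0.239 and 0.31 ± 0.196 in overlapping groups, so the Id genes had no shared sign. In the Wnt and beta-catenin list, which drives barrier formation, 2 of 17 were lower. These were the co-receptor gene Tspan12 (-0.36 ± 0.112, limma adjusted p = 0.249) and the receptor gene Fzd4 (-0.30 ± 0.127, 0.332). In the Notch list 1 of 10 was lower, the arterial factor gene Hey2 at -0.54 ± 0.156 (limma adjusted p = 0.234). Next in that list came Jag2, a Notch ligand, at 0.43 ± 0.235 (limma adjusted p = 0.425).

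For the lists that follow, 5.68% of all genes were lower and 9.89% higher at an unadjusted p under 0.05. Further mural markers held 2 of 12 lower and 1 higher, Cspg4, for the NG2 proteoglycan of pericytes and oligodendrocyte precursors, at 0.25 ± 0.108 (limma adjusted p = 0.339). Rgs5, abundant in pericytes, read 10.68, 10.99 and 11.04 in Gb5ko arrays and 11.16, 11.48 and 11.38 in Gb5wt arrays, a difference of -0.43 ± 0.135 (limma adjusted p = 0.25) without overlap. Tbx18, a transcription factor of mural cells, differed by -0.27 ± 0.108 (limma adjusted p = 0.309). These stand beside the mural members, of which 0 of 7 had an unadjusted p under 0.05. PDGF genes gave 0 of 4, with Pdgfd at -0.22 and Pdgfb, which recruits pericytes, at 0.17. Further barrier transporters gave 1 of 12 lower, the thiamine carrier gene Slc19a3 at -0.51 ± 0.199 (limma adjusted p = 0.3), with the taurine carrier gene Slc6a6 next at 0.17. Further junction genes gave 0 of 12, with the connexin genes Gja4 at 0.23 and Gja5 at 0.33 nearest.

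Among markers of other cells 0 genes passed the limma adjusted threshold (smallest adjusted p = 0.158), and their part in the values above was not tested. Their signs stand against a positive share of 59.9% over all genes. Markers of meningeal fibroblasts, a cell type also found along larger vessels, were negative for 11 of 12 genes, with summed levels (log2 of the linear sum) from 12.83 to 12.92 in knockouts and from 13.05 to 13.11 in wild types. Astrocyte markers were negative for 8 of 11 (14.98 to 15.18 and 15.22 to 15.33), oligodendrocyte markers for 9 of 9 (14.46 to 14.86 and 14.81 to 14.99), choroid plexus markers for 8 of 10 (13.62 to 13.77 and 13.66 to 13.84) and blood markers for 6 of 9 (9.24 to 9.43 and 9.07 to 9.58). Microglia markers were positive for 8 of 10 (13.37 to 13.44 and 13.21 to 13.25) and pituitary markers for 7 of 7 (7.83 to 11.44 and 7.71 to 8.53), while neuron markers were positive for 4 of 10 (15.43 to 15.53 and 15.50 to 15.59). The summed level of the 33 members ran from 14.06 to 14.12 in knockouts and from 14.09 to 14.28 in wild types, and without wild-type replicate 5 the latter ended at 14.12. No marker was at 0, since the deposited values have no zero.

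Gnb5 itself read 3.67, 3.00 and 3.56 in Gb5ko arrays and 8.79, 8.98 and 9.30 in Gb5wt arrays, as the labels say. Knockout replicate 3 read high for pituitary genes such as Gh, for growth hormone, and several arrays read both Xist, expressed from the inactive X, and the Y-linked Eif2s3y: 8.31 and 11.3 in knockout replicate 2, 10.6 and 6.97 in knockout replicate 3, and 10.8 and 6.05 in wild-type replicate 5, against 10.7 and 2.96 in knockout replicate 1. The labels do not say how many animals went into an array. Leaving out each group's array with most Eif2s3y (knockout replicate 2 and wild-type replicate 4) gave 1 of 58 member probe sets higher and 3 lower by unadjusted p, where 5.74% and 4.76% of all were. With the array of highest Gh left out (knockout replicate 3 and wild-type replicate 6), 3 were higher and 7 lower (6.27% and 4.8% of all). By the adjusted p, 0 member probe sets passed in either fit.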

How the data were processed

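The authors deposited log2 expression values for each array, made with RMA and Partek per the submitters' processing notes (versions not stated there). RMA gives arrays a common distribution and no zeros, and folds of dim probe sets can be compressed. Values lay between 1.91 and 14.4, medians of arrays between 5.81 and 5.85, and no further normalization was applied. Of 45101 probe sets, 64 controls were left out. In the platform annotation 34945 probe sets had 1 gene, and 932 with several were not named. The genotypes were tested by limma 3.58.1 (lmFit, eBayes; R 4.3.3), two-sided, with Benjamini-Hochberg adjustment over 45037 probe sets, without a filter. The fit was checked on simulated data. Differences had a median standard error of 0.123, and the number of arrays limits the precision. An exact permutation test of 3 against 3 arrays could give no p under 0.1 and was not used. Members, lists and the rule for named genes were chosen with earlier results of these data known. That rule takes every called probe set, both Acvrl1 probe sets, the 3 genes of smallest p in each role with all array values, and up to 2 genes of each pathway list. Other members and their probe sets were named with values already seen, to account for every gene. The alternatives were filters on dim probe sets, 3 normalizations, 2 variance models, other probe set choices, a looser threshold and arrays left out. Figures were drawn with matplotlib 3.10.9.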

Additional observations from a re-analysis of the deposited data

How the results depend on the processing

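No paired analysis was possible because the knockout arrays are numbered 1 to 3 and the wild-type arrays 4 to 6. Called probe sets over the whole table numbered 12. They were 20 with a mean of at least 5, 4 with a mean of at least 7, 23 with trend and robust eBayes, 27 with array weights, 4 with 1 probe set per gene and 44 at an adjusted p under 0.1, and 9 to 12 with 1 array left out. Called member probe sets were 0, and 1, Acvrl1, with a mean of at least 5 (adjusted p = 0.0492), a filter it clears only through its knockout values, and at an adjusted p under 0.1. With any 1 array left out they were 0. Member probe sets higher at an unadjusted p under 0.05 were 5. They were 3 with a mean of at least 5, 2 with a mean of at least 7, 3 with array weights, 3 with 1 probe set per gene, 3 without the arrays of highest Gh, 1 without those of highest Eif2s3y, and 1 (without wild-type replicate 4) to 9 (without wild-type replicate 5) with 1 array left out, being 2 without knockout replicate 1. Lower ones were 7. They were 9 when quantile normalized again, with cyclic loess and with array weights (7.45%, 7.68% and 6.02% of all probe sets). Lower counts were 3 with a mean of at least 7, 3 without the arrays of highest Eif2s3y and 3 to 7 with 1 array left out. In that last range the 3 was without wild-type replicate 5. The fits with a filter or 1 probe set per gene test fewer probe sets; for the others the cause was not tested. The junction median of -0.20 was -0.11 with a mean of at least 7 and -0.062 as a mean over probe sets, and -0.24 to -0.12 with 1 array left out. The mural median of -0.12 was -0.23 without the arrays of highest Eif2s3y and 0.0093 as a mean over probe sets. The median of the other endothelial genes, -0.014, was -0.15 without the arrays of highest Eif2s3y and -0.13 to 0.11 with 1 array left out, turning positive without wild-type replicate 5 or knockout replicate 1. The receptor median of -0.09 was -0.0011 as a mean over probe sets and 0.011 with the probe set of largest SD. Transporter medians ran from -0.12 to 0.012 and receptor medians from -0.12 to -0.0021 with 1 array left out. Of 479 gene values under alternatives, 478 stayed uncalled as in the main fit, and 1, Acvrl1, gained a call with a mean of at least 5. As no member gene was called in the main fit, this count does not measure how stable the differences are. Renormalizing moved the median over all probe sets by at most -0.0221.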
